A study of Rattus norvegicus with 9 samples.

Results

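The spliceosome genes of INS-1E cells, a rat insulinoma line that secretes insulin and is used as a model of the pancreatic beta cell, were followed under palmitic acid (PA) and cyanidin-3-O-glucoside (C3G), an anthocyanin. Members were the genes of the table whose KEGG annotation holds the Spliceosome entry, apart from the Hspa heat shock genes that the entry also holds. This left 129 of the 20645 genes, after 4 Hspa genes of 133 were set aside. RNA-seq covered 9 libraries of INS-1E cells kept for 24 h in 1 of 3 treatments, with 3 libraries each. The BSA group received fatty acid-free albumin, the PA group 0.5 mM PA, and the PA + C3G group 0.5 mM PA together with 50 µM C3G. No group received C3G without PA. The study's methods state biological replication of its experiments in general, but neither they nor the labels say that the 3 libraries of a group came from separate cultures, so the p-values measure the spread between these libraries.

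The spliceosome removes introns from pre-mRNA. It is built from small nuclear ribonucleoproteins (snRNPs), each a small RNA with a ring of Sm or LSm proteins and particle-specific proteins. U1 reads the 5′ splice site, U2 with the U2AF proteins reads the branch site and the 3′ end of the intron, and the U4/U6 and U5 tri-snRNP and the Prp19 complex then form the active site, while DEAD/DEAH box helicases drive each rearrangement. SR proteins and hnRNPs bind the pre-mRNA and tune which sites are used, and the exon junction complex (EJC) marks the finished junction for export and decay. The values here are mRNA levels of these factors, not measurements of splicing.

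The members were grouped by role into 10 classes of 3 to 22 genes, and 128 of the 129 passed the filter of a mean FPKM (sequenced fragments corrected for gene length and depth) of at least 1, as did 12958 genes of the whole table. The member left untested was LOC108348108, which the table describes as a heat shock 70 kDa protein. Its FPKM was 2.33, 3.18 and 2.21 in replicate 3 of the BSA, PA and PA + C3G groups and at most 0.0393 in the other 6 libraries. Mean FPKM of the tested members reached 474 for Hnrnpa1.

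Promoters of the members are shown for the 3 members that fell and the 3 that rose with the smallest p-values in PA versus BSA, since the members moved largely together there. RefSeq promoters (rat build GRCr8) were matched to 109 of the 129 members. The 150 bases before the start are printed 5′ to 3′ on the gene's strand. Capitals mark every match on either strand to CCGGAAG (the ETS family core, read as CTTCCGG on the other strand), the palindromic NRF1 motif of GC-rich promoters or CCAAT (the NF-Y box). The first 3 genes fell and the last 3 rose.

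Hnrnpu (chr13:92618581-92618730, minus strand): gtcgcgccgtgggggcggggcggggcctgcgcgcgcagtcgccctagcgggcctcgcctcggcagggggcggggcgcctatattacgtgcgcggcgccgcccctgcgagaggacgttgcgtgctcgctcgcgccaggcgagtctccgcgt
Srsf1 (chr10:73336348-73336497, plus strand): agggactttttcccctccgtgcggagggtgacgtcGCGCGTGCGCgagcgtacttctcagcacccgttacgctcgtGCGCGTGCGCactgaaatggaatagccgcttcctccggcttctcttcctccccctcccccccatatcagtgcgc
Ncbp1 (chr5:65211482-65211631, plus strand): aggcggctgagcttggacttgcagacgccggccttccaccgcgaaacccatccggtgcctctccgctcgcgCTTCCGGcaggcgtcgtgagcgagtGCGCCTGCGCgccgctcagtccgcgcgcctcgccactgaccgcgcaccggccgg
Prpf18 (chr17:78539740-78539889, plus strand): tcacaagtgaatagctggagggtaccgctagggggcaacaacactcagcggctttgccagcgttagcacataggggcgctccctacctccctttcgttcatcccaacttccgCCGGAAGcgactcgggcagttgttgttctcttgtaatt
Sart1 (chr1:212128487-212128636, minus strand): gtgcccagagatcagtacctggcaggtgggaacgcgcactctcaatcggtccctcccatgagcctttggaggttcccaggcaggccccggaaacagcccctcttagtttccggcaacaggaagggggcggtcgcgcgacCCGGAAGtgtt
Prpf19 (chr1:216966357-216966506, plus strand): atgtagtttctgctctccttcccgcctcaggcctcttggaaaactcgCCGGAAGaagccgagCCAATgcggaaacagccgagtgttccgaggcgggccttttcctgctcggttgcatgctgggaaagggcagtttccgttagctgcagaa

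Over the 250 bases before the start and both strands, CCGGAAG stood in 34 of 109 member promoters (31.2%), against 16.11% of the 8999 matched promoters of tested genes and 7.74% of all 27457 promoters. The NRF1 motif stood in 23 (21.1%), against 9.86% and 4.17%. CCAAT stood in 47 (43.1%), against 35.82% and 34.29%. Of the 61 matched members that fell in PA versus BSA, 13 held CCGGAAG, 13 the NRF1 motif and 30 CCAAT. Of the 12 matched members that rose, 6, 1 and 3 did. Members without a call also held these motifs, and whether a motif goes with the direction of change was not tested. The members' promoters had a median of 56.0% GC, against 60.8% for tested genes, with a median of 17 CpG in both. TATAAA was in 7 (6.4%, against 5.65% and 13.09%), TGACGTCA in 6 (5.5%, against 3.09% and 1.7%), and AAGATGGCG in 0 (against 1.4% and 0.74%). The ER stress element, which begins with CCAAT and ends with CCACG 9 bases later, was in 1 (0.9%, against 0.17% and 0.08%). These matches describe letters and show no binding.

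Total estimated counts were 45559993 to 66730721 per library. All 10 beta cell markers looked for were at a mean FPKM of at least 1, while 7 of the 9 markers of duct, acinar and delta cells, fibroblasts and leukocytes that had values averaged under 1. Among these, Ptprc, Cpa1, Col1a1 and Hhex were at most 0.0795 FPKM in every library, Cel reached 0.112, Krt19 0.177 and Cd68 0.674. The duct marker Sox9 was at 2.52 to 2.72 FPKM in BSA, 4.52 to 5.86 in PA and 3.05 to 3.87 in PA + C3G, and the fibroblast marker Pdgfra at 2.02 to 2.60, 3.05 to 3.52 and 2.56 to 2.79. Both were higher in every PA library than in every BSA library, and their part in the results was not tested. Gcg, the alpha cell hormone, was at 8.28 to 31.2 FPKM in BSA, 1.35 to 6.02 in PA and 4.17 to 22.5 in PA + C3G. Members made up 1.49% to 1.51% of the summed FPKM in BSA, 1.33% to 1.35% in PA and 1.24% to 1.27% in PA + C3G. The insulin genes Ins1 and Ins2 took 7.38% to 7.70%, 2.92% to 3.13% and 6.94% to 7.90%. With both insulin genes left out of the sum, the members' shares were 1.61% to 1.63%, 1.37% to 1.40% and 1.35% to 1.36%. In these bulk cultures, fewer cells with a gene and less of its RNA per cell cannot be told apart.

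The first question was how PA changed the splicing machinery. Many more spliceosome genes fell than rose after PA. Of 128 members, 70 were lower (54.7%) and 12 higher (9.38%) in PA versus BSA, whereas 25.2% of all tested genes were lower and 25.8% higher (edgeR's quasi-likelihood test, Benjamini-Hochberg adjusted p under 0.05 over all tested genes). Counted in either direction, 82 members (64.1%) were called, against 51.0% of all tested genes. The median log2 fold change of members was −0.18, against 0.00 for all tested genes, and 97 of 128 were below 0. The changes were small. The members that fell had a median drop of 0.36 on the log2 scale, at most 1.76-fold, and 8 of the 70 exceeded 1.5-fold. Only 1 member, Snrpg, met the stricter criterion of a change above 2-fold at an unadjusted p under 0.05, against 7.56% of all tested genes. All 70 that fell, and 11 of the 12 that rose, had PA libraries that did not overlap the BSA libraries in FPKM. That count was not set against all tested genes. Uncalled members such as Hnrnpa1 and Srsf5 also had groups without overlap, so it says nothing particular about the members.

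**Figure D1:**
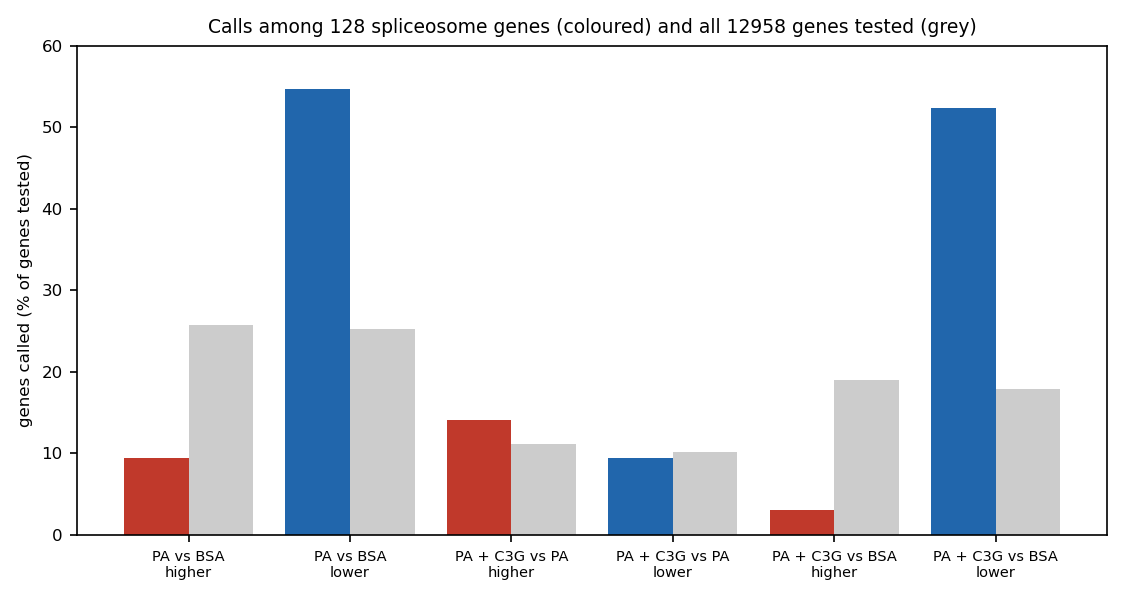
Percent of genes called higher (red) or lower (blue) among the 128 tested spliceosome genes, beside the same percent over all 12958 tested genes (grey), for each of the 3 comparisons (edgeR, adjusted p under 0.05). The lower bars stand at 54.7% and 52.3% of members in the comparisons with BSA, against 25.2% and 17.9% of all genes.

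**Figure D2:**
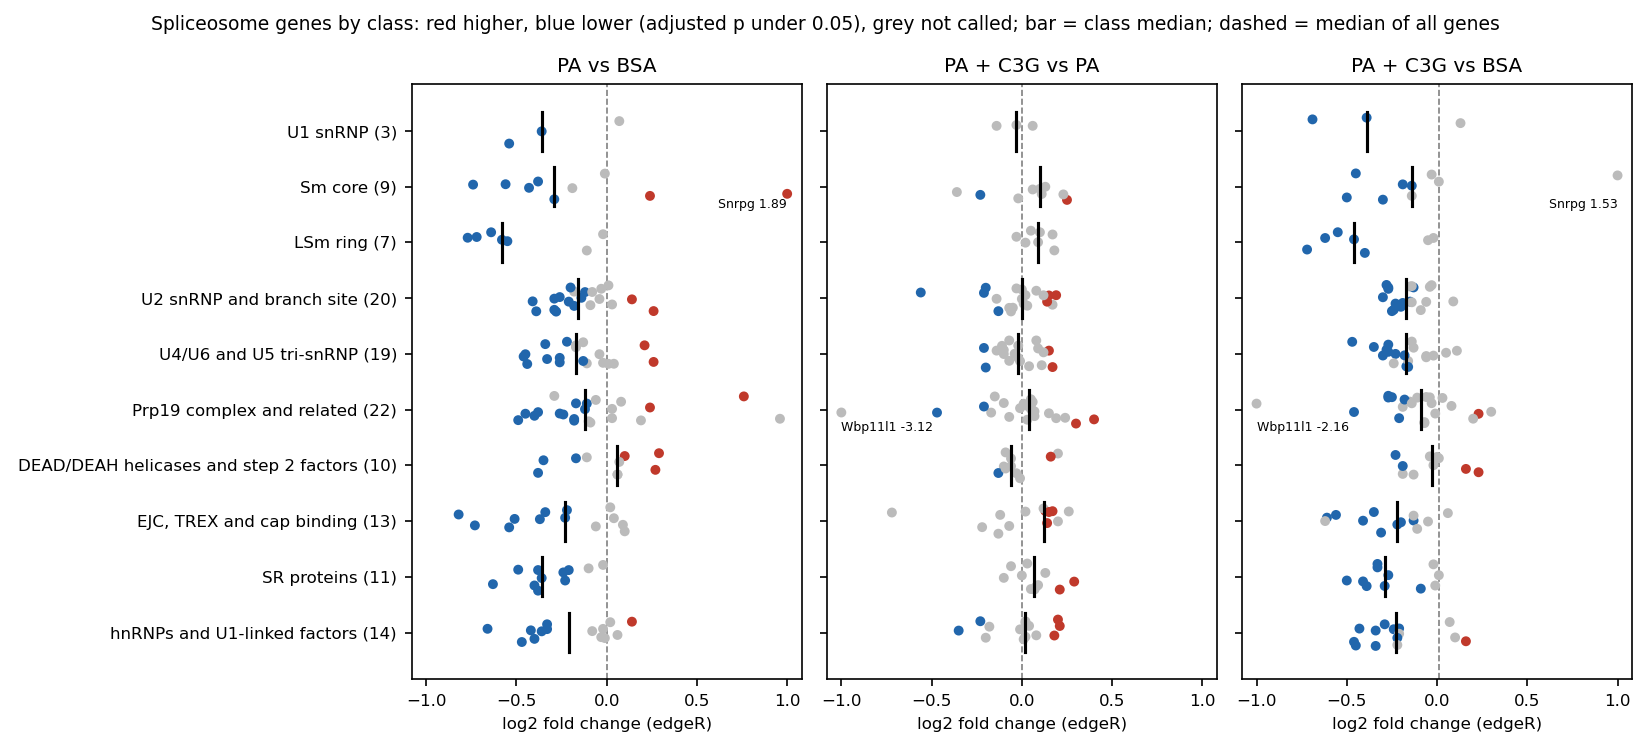
Log2 fold change of each tested member (points) by class, with the number of members in parentheses, for the 3 comparisons. Red points were called higher and blue points lower, black bars are class medians and dashed lines the medians of all tested genes. Points beyond 1 or −1 sit at the edge with their value. In PA versus BSA the LSm ring median was −0.58. The median of the class of helicases and step 2 factors alone lay above 0, at 0.06.

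The class counts below are to be read against the 25.2% lower and 25.8% higher of all tested genes, and the smallest class holds 3 genes. The LSm ring, which holds the end of U6 RNA and as a related ring takes part in mRNA decay, had the lowest class median in PA versus BSA, −0.58, with 5 of 7 members lower and 0 higher. Lsm3 was at 29.6, 29.7 and 34.9 FPKM in BSA, 19.0, 16.6 and 18.7 in PA and 18.7, 18 and 17.9 in PA + C3G. Both PA-treated groups lay far below BSA and overlapped each other. Lsm3 fell by 0.77 on the log2 scale in PA versus BSA (SE 0.09, adjusted p = 8.22e-05). Lsm4 was at 58.5, 59.1 and 63.8 FPKM in BSA, 34.1, 36.5 and 37.6 in PA and 42.5, 37.5 and 38.7 in PA + C3G, and fell by 0.72 (SE 0.06, adjusted p = 1.21e-05). Lsm2, at 30.1 to 33.1 FPKM in BSA and 17.8 to 21.8 in PA, fell by 0.64 (SE 0.10, adjusted p = 0.000577). Lsm8, the subunit that is particular to the U6 ring, was at 44.4 to 47.8 FPKM in BSA and 42.4 to 46.3 in PA. Its log2 fold change of −0.02 did not pass the test (adjusted p = 0.851). Neither did that of Lsm7, −0.11 (adjusted p = 0.449), at 37.2 to 42.4 FPKM in BSA and 32.2 to 41.4 in PA.

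The Sm proteins form the ring of the U1, U2, U4 and U5 particles. Here 5 of 9 were lower and 2 higher, with a median of −0.29. Snrpd1 was at 86.1, 83.2 and 98.7 FPKM in BSA and 53.9, 55.1 and 49.1 in PA. It fell by 0.74 on the log2 scale (SE 0.08, adjusted p = 5.26e-05). Snrpb, which gives the SmB proteins, was at 113, 115 and 119 FPKM in BSA and 85.8, 89.7 and 86.4 in PA, and fell by 0.38 (SE 0.04, adjusted p = 2.46e-05). Snrpd2, the partner of Snrpd1 in the ring, moved the other way, from 66.1, 73.7 and 75.7 FPKM in BSA to 77.3, 89.3 and 83.4 in PA (log2 fold change 0.24, SE 0.07, adjusted p = 0.0133). The other rise was Snrpg, which is described with its second locus further on. In the U1 particle, 2 of 3 members were lower. Snrpa, the protein that holds a stem loop of U1 RNA, was at 29.3 to 31.5 FPKM in BSA and 20 to 21.5 in PA and fell by 0.54 (SE 0.09, adjusted p = 0.000572), and Snrpc, the protein at the U1 contact with the 5′ splice site, fell by 0.36 (SE 0.07, adjusted p = 0.00154). Snrnp70 (U1-70K), at 126 to 144 FPKM in BSA and 137 to 139 in PA, had a log2 fold change of 0.07 that did not pass (adjusted p = 0.318).

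Of the 20 factors of the U2 snRNP and the branch site, 11 were lower and 2 higher, with a median of −0.16. U2af2 (U2AF65), which binds the polypyrimidine tract, was at 120, 125 and 126 FPKM in BSA and 93.2, 93.1 and 91.4 in PA, and fell by 0.39 on the log2 scale (SE 0.04, adjusted p = 1.52e-05). Its partner U2af1 (U2AF35), which reads the AG at the intron's end, was at 60.4 to 65.0 FPKM in BSA and 56.2 to 62.9 in PA, so the groups overlapped, and it did not pass (log2 fold change −0.04, adjusted p = 0.602). Snrpa1, a protein of the U2 particle, rose from 19.9, 19.6 and 20.2 FPKM to 22.2, 23.2 and 25.1 (log2 fold change 0.26, SE 0.06, adjusted p = 0.00658). Sf3b1, the large branch site subunit of SF3b, rose by a log2 fold change of 0.14 (adjusted p = 0.0332), from 78.0 to 83.1 FPKM in BSA to 83.9 to 90.6 in PA. The small SF3b subunit Sf3b5 did not pass, at −0.03 (adjusted p = 0.633).

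Of the 19 tri-snRNP members, 9 were lower and 2 higher, with a median of −0.17. Prpf8, the U5 protein at the centre of the active site, was at 97.4, 93.8 and 94.9 FPKM in BSA and 78.4, 79.9 and 76.1 in PA, and fell by 0.26 on the log2 scale (SE 0.04, adjusted p = 0.000207). Eftud2, the U5 GTPase, fell by 0.22 (SE 0.05, adjusted p = 0.00538). Snrnp200, the helicase that unwinds U4 from U6, did not pass, at −0.04 (adjusted p = 0.512), nor did Snu13, which binds U4 RNA, at 0.04 (adjusted p = 0.62). The 2 rises were Sart1, from 32.0, 34.0 and 33.5 to 38.5, 38.5 and 40.5 FPKM (log2 fold change 0.26, SE 0.04, adjusted p = 0.000307), and Prpf6, from 37.1 to 38 up to 42.2 to 43.5 FPKM (0.21, SE 0.04, adjusted p = 0.00165). Both hold parts of the tri-snRNP together.

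In the Prp19 complex and related proteins, 11 of 22 were lower and 2 higher, with a median of −0.12. Prpf19, the ubiquitin ligase that names the complex and the member with the second highest mean FPKM, rose from 426, 449 and 427 to 501, 489 and 522 FPKM (log2 fold change 0.24, SE 0.04, adjusted p = 0.000446). Rp9, named for a form of retinitis pigmentosa, rose from 5.33, 5.66 and 5.45 to 10, 8.91 and 8.56 FPKM (0.76, SE 0.12, adjusted p = 0.000589). Ppil1, a prolyl isomerase of the activated spliceosome, was among those that fell, by 0.49 (SE 0.08, adjusted p = 0.000501). The mixed class of helicases and second-step factors had no lean to lower levels, with 3 of 10 lower and 3 higher and a median of 0.06. It does not hold every helicase. Helicases counted in other classes included Eif4a3 and Ddx39b, with log2 fold changes of −0.37 and −0.34, and Snrnp200, which did not pass. The second-step factors Prpf18 (8.76, 8.33 and 8.33 FPKM in BSA, 10.2, 10.3 and 10.1 in PA) and Cdc40 (6.73, 7.40 and 7.33, then 8.39, 8.48 and 8.49) rose by log2 fold changes of 0.29 (SE 0.04, adjusted p = 0.000226) and 0.27 (SE 0.06, adjusted p = 0.00649). Ddx46, a helicase that acts when U2 joins, rose by 0.10 (adjusted p = 0.044). Ddx5, an abundant helicase, fell from 443, 468 and 447 to 344, 359 and 346 FPKM (by 0.35, SE 0.04, adjusted p = 2.9e-05).

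Among EJC, TREX export and cap-binding members, 8 of 13 were lower and 0 higher, with a median of −0.23. Magohb, a copy of the EJC core subunit Mago, had the largest fall of the members, from 19.3, 18.1 and 20.7 to 11.5, 11.2 and 9.75 FPKM (by 0.82, SE 0.11, adjusted p = 0.000144). Alyref, the TREX adaptor that hands mRNA to the exporter, was at 60.3, 60.6 and 62.2 FPKM in BSA and 35.6, 37.7 and 35.3 in PA, and fell by 0.73 (SE 0.05, adjusted p = 1.89e-06). Eif4a3, the helicase that anchors the EJC, fell by 0.37 (SE 0.04, adjusted p = 5.48e-05), from 101 to 108 FPKM down to 76.6 to 82.4, and Ddx39b, the TREX helicase, by 0.34 (SE 0.03, adjusted p = 2.19e-05).

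All 11 SR proteins had log2 fold changes below 0, 9 of them past the test, with a median of −0.36. Srsf1, the founding member, was at 75.9, 74.3 and 75.1 FPKM in BSA, 47.3, 45.2 and 50.9 in PA and 50.1, 51.3 and 51.4 in PA + C3G. It fell by 0.63 on the log2 scale in PA versus BSA (SE 0.04, adjusted p = 1.58e-06). Srsf6 fell by 0.38 (SE 0.03, adjusted p = 6.89e-06), from 65.3 to 66.9 FPKM down to 49.3 to 50.4. Srsf2 and Srsf9 fell by 0.23 (SE 0.05, adjusted p = 0.00397) and 0.24 (SE 0.05, adjusted p = 0.00523), and Srsf5 did not pass, at −0.10 (adjusted p = 0.105). Of the 14 hnRNPs and U1-linked factors, 7 were lower and 1 higher, with a median of −0.21. Hnrnpu, a nuclear scaffold protein that also binds pre-mRNA, was at 225, 213 and 224 FPKM in BSA, 136, 141 and 136 in PA and 154, 156 and 152 in PA + C3G. It fell by 0.66 (SE 0.04) with the smallest adjusted p of the members, 4.22e-07. Hnrnpm fell by 0.42 (SE 0.04, adjusted p = 2.45e-05) and Hnrnpa3 by 0.33 (SE 0.04, adjusted p = 5.76e-05). Hnrnpa1, the most abundant member, was at 520 to 552 FPKM in BSA and 493 to 516 in PA, and its difference of −0.08 did not pass (adjusted p = 0.162).

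**Figure D3:**
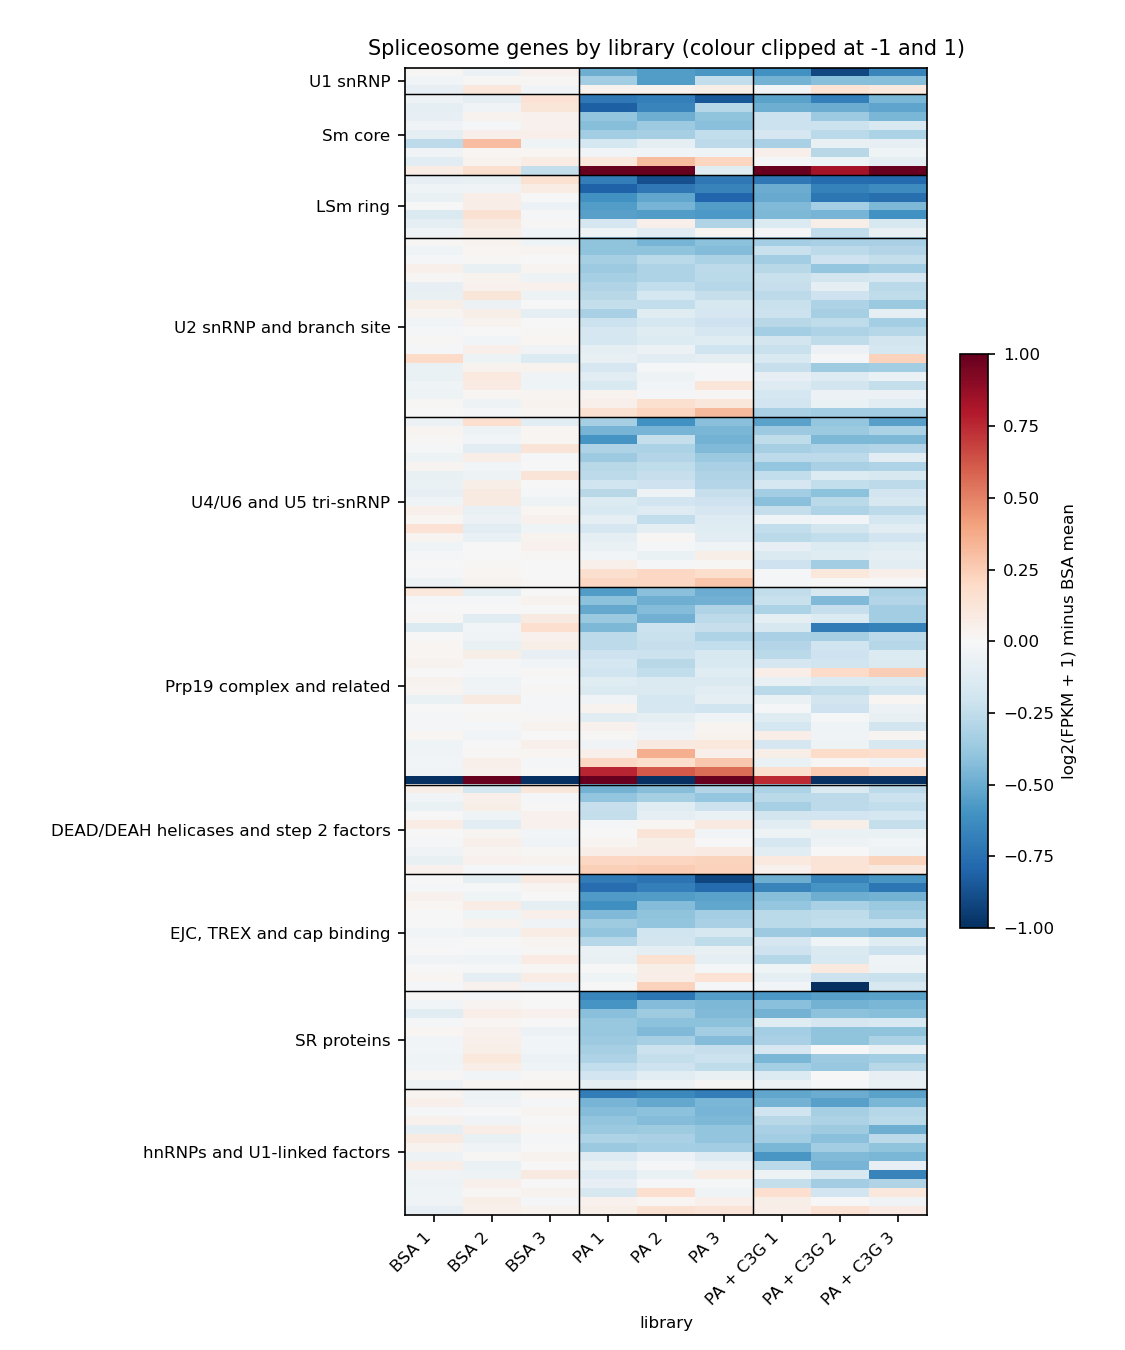
Log2(FPKM + 1) of each tested member (rows, by class) in each of the 9 libraries (columns), as the difference from the mean of the 3 BSA libraries. Blue is lower and red higher, clipped at −1 and 1. Most rows are blue in both PA-treated groups. The 3 rows at the ends of the scale are Snrpg, Wbp11l1 and a second Ncbp2 locus.

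The calls for Ddx46 and Sf3b1, the smallest of the rises named here, were lost in 12 and 9 of 18 alternative settings, that for Bud31 in 4 (TPM scaling and without BSA replicate 3, PA replicate 1 or PA replicate 2), and that for Snrpd2 in 1 (without BSA replicate 1). Leaving out a library left 62 to 71 members lower and 8 to 12 higher, and the 8 came from leaving out BSA replicate 1, BSA replicate 3 or PA replicate 2.

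The second question was what C3G changed in cells given PA. The members moved both ways and by small amounts. Of 128 members, 18 were higher (14.1%) and 12 lower (9.38%) in PA + C3G versus PA, near the 11.1% and 10.2% of all tested genes, and the median log2 fold change was 0.02, against 0.00 for all genes. In either direction 30 members (23.4%) were called, against 21.2% of all tested genes. No called change reached 1.5-fold, and 0 members met the criterion of 2-fold at an unadjusted p under 0.05, which 1.13% of all tested genes met. PA versus BSA and PA + C3G versus PA share the PA libraries, so the values below are given side by side and their signs are not independent.

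**Figure D4:**
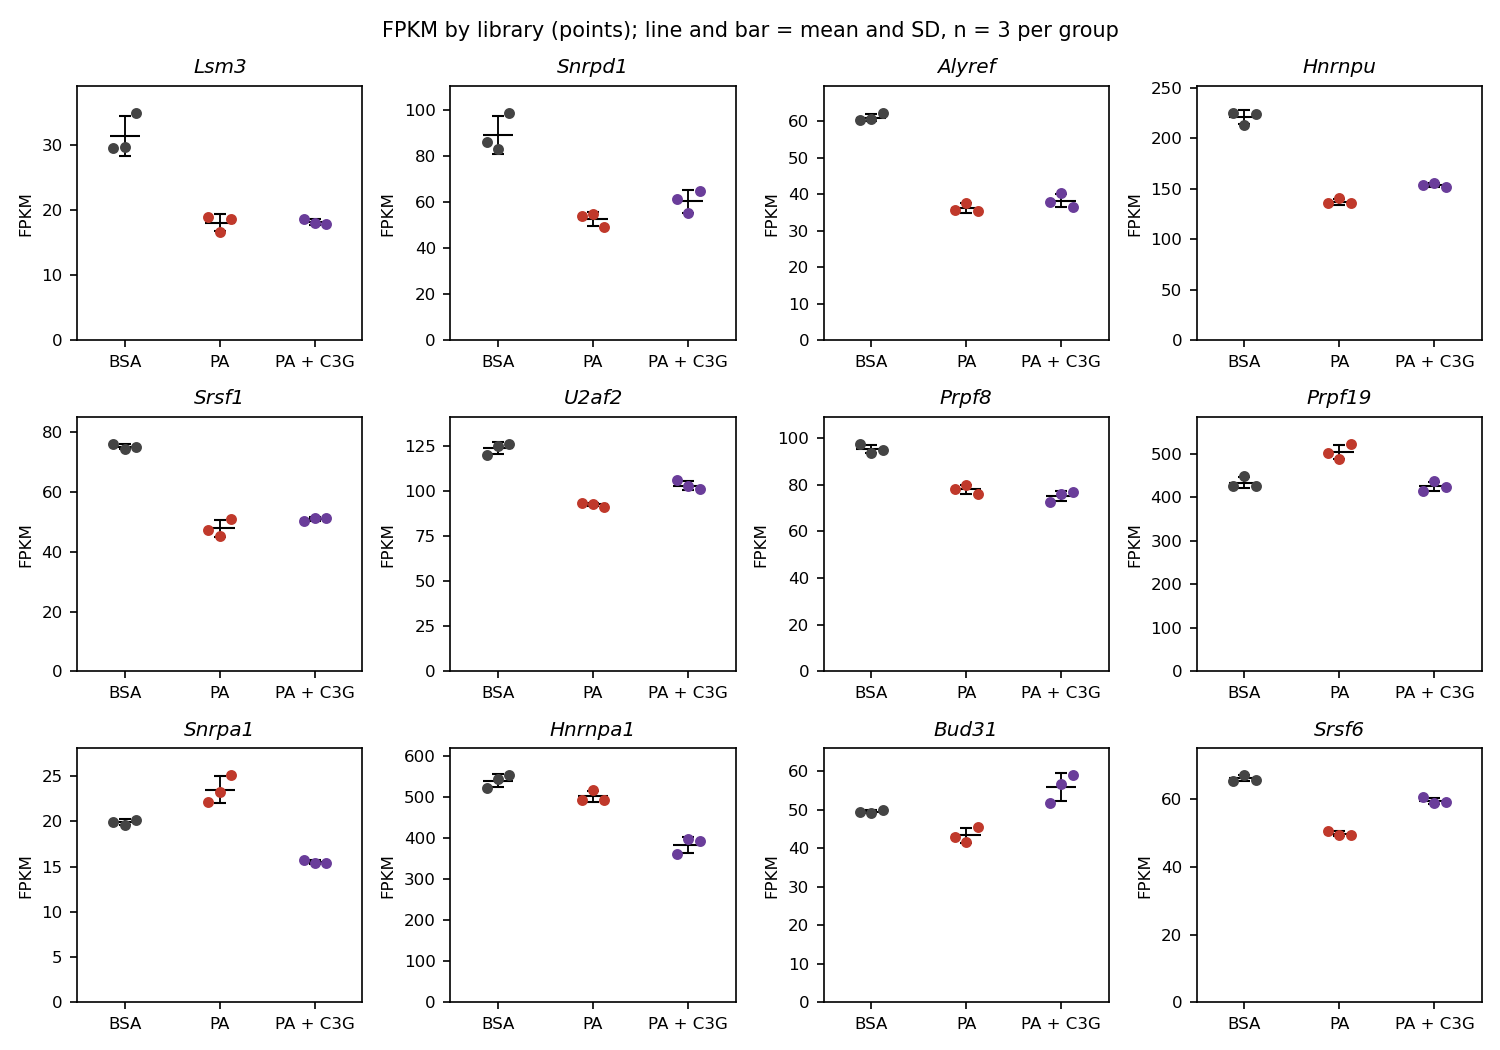
FPKM of 12 named members in each library (points) of the BSA, PA and PA + C3G groups, with the mean (line) and SD (bar, n = 3 per group) and axes from 0. Lsm3, Alyref and Srsf1 were below BSA in both PA-treated groups, Prpf19 in PA + C3G overlapped BSA, Snrpa1 and Hnrnpa1 were lowest in PA + C3G, and Bud31 was highest there.

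The largest rise with C3G was that of Bud31, a protein of the activated spliceosome. It was at 49.3, 49.1 and 50.0 FPKM in BSA, 43.0, 41.6 and 45.5 in PA and 51.8, 56.7 and 58.9 in PA + C3G, with no overlap between any of the groups. Bud31 fell by 0.17 on the log2 scale in PA versus BSA (SE 0.05, adjusted p = 0.0236) and rose by 0.40 in PA + C3G versus PA (SE 0.05, adjusted p = 0.001). Srsf6 was at 60.4, 58.7 and 59.1 FPKM in PA + C3G, between the other groups, a rise of 0.29 over PA (SE 0.03, adjusted p = 0.000403). Snrpb, at 99.6, 99.4 and 104 FPKM in PA + C3G, rose by 0.25 (SE 0.04, adjusted p = 0.0023), and Hnrnpm, at 137, 125 and 129, by 0.21 (SE 0.04, adjusted p = 0.00727). U2af2 rose by 0.19 (SE 0.04, adjusted p = 0.00576), to 106, 103 and 101 FPKM. These stood between the PA and the BSA libraries. Hnrnpu, at 152 to 156 FPKM, was likewise higher than in PA, by 0.20 (SE 0.04, adjusted p = 0.00445).

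Ppil1 and Srsf9 rose with C3G by log2 fold changes of 0.30 (SE 0.08, adjusted p = 0.0219) and 0.21 (SE 0.05, adjusted p = 0.0227). In Srsf9 the PA + C3G libraries, at 64.4, 72.3 and 68.9 FPKM, overlapped those of BSA, at 71.2, 75.7 and 71.1. By class, EJC, TREX and cap binding had 4 of 13 higher and SR proteins 2 of 11, with 0 lower in both, and the LSm ring and U1 particle had 0 of 7 and 0 of 3 called, in classes too small to set apart from the 11.1% higher and 10.2% lower of all tested genes. Srsf2 was called lower under TPM scaling. Ddx5, Ddx39b and Eif4a3 rose by 0.16 (SE 0.04, adjusted p = 0.0121), 0.14 (SE 0.03, adjusted p = 0.0149) and 0.15 (SE 0.04, adjusted p = 0.0328).

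The largest fall with C3G was that of Snrpa1, to 15.7, 15.4 and 15.4 FPKM, below both other groups. It fell by 0.56 on the log2 scale against PA (SE 0.06, adjusted p = 0.000508) and by 0.30 against BSA (SE 0.06, adjusted p = 0.0052). Hnrnpa1, which represses splice sites near its binding sites, fell to 360, 396 and 393 FPKM, also below both other groups, by 0.35 against PA (SE 0.05, adjusted p = 0.000964) and 0.43 against BSA (SE 0.05, adjusted p = 6.19e-05). Rbmx, an X-linked hnRNP, and U2af1 were also lowest in PA + C3G. Rbmx was at 28.7, 26.5 and 27.3 FPKM in PA + C3G, against 32.1 to 33.7 in PA and 32.7 to 35.2 in BSA (by 0.23 against PA, SE 0.05, adjusted p = 0.00885), and U2af1 at 54.0, 49.4 and 49.7 (fell by 0.21, SE 0.06, adjusted p = 0.0354).

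For 6 more members that fell with C3G, the difference from BSA did not pass the test. Prpf19 was at 415, 437 and 423 FPKM in PA + C3G and fell by 0.21 on the log2 scale against PA (SE 0.04, adjusted p = 0.0044), while its difference from BSA, 0.03, did not pass (adjusted p = 0.545). Sart1, at 32.9, 33.1 and 33.0 FPKM, fell by 0.21 (SE 0.04, adjusted p = 0.00505). Against BSA its difference was 0.05 (adjusted p = 0.312). Rp9 fell by 0.47 (SE 0.12, adjusted p = 0.0245), to 6.24, 6.71 and 6.44 FPKM, and Snrpd2 by 0.23 (SE 0.07, adjusted p = 0.0365), to 70.6, 69.7 and 67.5. Rp9 in PA + C3G stood between the BSA and the PA libraries, and Snrpd2 overlapped BSA. Sf3b1 and Snu13 each fell by 0.20 (adjusted p = 0.0159 and 0.0352). Sf3b1 was at 70.7, 77.3 and 75.2 FPKM in PA + C3G and Snu13 at 107, 97.1 and 115, under their 3 BSA libraries, with adjusted p = 0.348 and 0.0513 against BSA.

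The split between higher and lower in this comparison depended on the scaling. With each library scaled to the same FPKM sum (TPM scaling) it was 5 higher and 31 lower, and the median log2 fold change was −0.07, against −0.09 for all genes. With limma on log2(FPKM + 1) it was 10 and 16, and the median was −0.02, against −0.03. Of the 18 rises, Bud31, Hnrnpm, Snrpb, Srsf6 and U2af2 kept the call under TPM scaling, and all 12 falls kept it. Leaving out PA replicate 1 or PA + C3G replicate 3 left 9 higher in each case, and 5 were lower without PA replicate 2, 7 without PA replicate 3 and 7 without PA + C3G replicate 1. Since that scaling moved the median of all genes down, the kept calls do not show that the falls are firmer than the rises. The calls lost in the most settings among the named members were those of Prpf18, in 11 of 18, and Eif4a3, in 8. Other falls lost were Snu13 in 6, Rp9 and Snrpd2 in 5 each and U2af1 in 4. Among the rises, Ppil1, Srsf9 and Ddx39b were lost in 5 each.

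The third question was how cells given PA with C3G stood against BSA. Most of the members called were lower. In PA + C3G versus BSA, 67 of 128 members were lower (52.3%) and 4 higher (3.12%), against 17.9% and 19.0% of all tested genes, and 71 (55.5%) were called in either direction, against 36.9%. The median log2 fold change was −0.19, against 0.01 for all tested genes, and 109 of 128 were below 0. The falls had a median size of 0.28 on the log2 scale and reached 1.65-fold, with 4 above 1.5-fold. All called members had libraries that did not overlap between the groups in FPKM, which was not set against all tested genes. Uncalled members such as Sf3b1 (adjusted p = 0.348) were also without overlap. Snrpg was again the 1 member past 2-fold at an unadjusted p under 0.05, against 4.63% of all tested genes, and its adjusted p was 0.0505.

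The lower levels ran through most classes in PA + C3G versus BSA, with 12 of 20 U2 and branch site factors, 10 of 19 tri-snRNP members, 9 of 14 hnRNPs and U1-linked factors, 8 of 11 SR proteins, 8 of 13 EJC, TREX and cap-binding members, 5 of 7 LSm proteins, 5 of 9 Sm proteins and 2 of 3 U1 proteins lower. In the Prp19 class it was 6 of 22, and among helicases and step 2 factors 2 of 10, nearer the 17.9% lower of all tested genes. The U1 class, with 3 genes, is too small to set apart from that share. The largest falls were Lsm3 (by 0.72, SE 0.09, adjusted p = 0.00022), Snrpa (by 0.69, SE 0.09, adjusted p = 0.000218) and Lsm2 (by 0.62, SE 0.10, adjusted p = 0.00111). Snrpa was at 19.7, 15.8 and 19.0 FPKM in PA + C3G, below the 29.3 to 31.5 of BSA. Alyref, at 38, 40.3 and 36.6 FPKM, was 0.61 lower than in BSA on the log2 scale (log2 fold change −0.61, SE 0.05, adjusted p = 1.17e-05), and its difference of 0.12 from PA did not pass (adjusted p = 0.126). Srsf1 had a log2 fold change of −0.50 against BSA (SE 0.04, adjusted p = 1.37e-05) and of 0.13 against PA, which did not pass (adjusted p = 0.0546). Prpf8 had −0.28 against BSA (SE 0.04, adjusted p = 0.00022) and −0.02 against PA (adjusted p = 0.743).

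Snrnp200, which had not passed in PA versus BSA, was at 32.2, 32.8 and 34.1 FPKM in PA + C3G, under all 3 BSA libraries at 39.9, 37.3 and 40.1, and fell by 0.18 on the log2 scale (SE 0.05, adjusted p = 0.0148). The rises named were Bud31 (log2 fold change 0.23, SE 0.05, adjusted p = 0.00625), Cdc40 (0.23, SE 0.06, adjusted p = 0.018) and Prpf18 (0.16, SE 0.04, adjusted p = 0.0116). The calls of Cdc40 and Prpf18 were lost in 5 and 4 of 18 settings, TPM scaling and both limma fits among them. The count of 4 rises went to 2 without BSA replicate 1, without BSA replicate 3 and without PA + C3G replicate 3. The fall of Srsf6 against BSA, 0.09 (SE 0.03, adjusted p = 0.049), was lost in 8 of 18 settings.

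Some members are annotated at more than 1 locus under the same KEGG orthology entry, and reads can be split between such copies. Snrpg and LOC687679 both stand for the SmG protein. Snrpg (chr1:91588228-91588609, minus strand, coordinates as deposited, with the build not given in the sources used here) was at 3.53, 3.82 and 2.65 FPKM in BSA, 14.4, 19.1 and 2.95 in PA and 10.3, 6.67 and 10.8 in PA + C3G. The third PA library lay within the BSA range although the gene was called higher in PA versus BSA (log2 fold change 1.89, SE 0.54, adjusted p = 0.0153). LOC687679 (chr4:118167294-118174842, plus strand) was at 94.9, 98.6 and 110 FPKM in BSA, 57.0, 63.4 and 82.6 in PA and 71.7, 71.4 and 69.6 in PA + C3G. The sum of both was 98.5, 102 and 113 in BSA, 71.4, 82.5 and 85.6 in PA and 82.0, 78.1 and 80.4 in PA + C3G, so that SmG as a whole was lower in every PA-treated library than in every BSA library.

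Magoh and Magohb together gave 88.0, 89.5 and 83.7 FPKM in BSA, 55.3, 60.9 and 56.7 in PA and 65.1, 65.6 and 64.7 in PA + C3G. The 3 groups did not overlap in this sum, and each gene alone was also lower in PA. Hnrnpc and LOC100911576 summed to 94.4, 88.8 and 94.6 FPKM in BSA, 86.4, 90.2 and 92.4 in PA and 81.8, 72.9 and 75.4 in PA + C3G. Neither locus alone passed in PA + C3G versus BSA (adjusted p = 0.0819 and 0.264). The 2 Crnkl1 loci summed to 16.8, 17.2 and 17.5 FPKM in BSA, 14.9, 14.6 and 14.3 in PA and 14.3, 13.8 and 15.1 in PA + C3G. Wbp11l1 was listed at 0 in 5 libraries (BSA 1 and 3, PA 2, PA + C3G 2 and 3) and at 3.28 to 20 FPKM in the other 4, while Wbp11 was at 17.5 to 32.9 FPKM throughout. One of the Ncbp2 loci was listed at 0 in PA + C3G replicate 2 and at 26.0 to 34.4 FPKM elsewhere, while the other was at 18.1 to 20.2 FPKM in all 9 libraries. Such zeros in 1 copy leave the level of these genes uncertain. This holds for Wbp11, which is counted among the lower members in PA + C3G versus BSA (log2 fold change −0.46, SE 0.15, adjusted p = 0.0396).

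**Figure D5:**
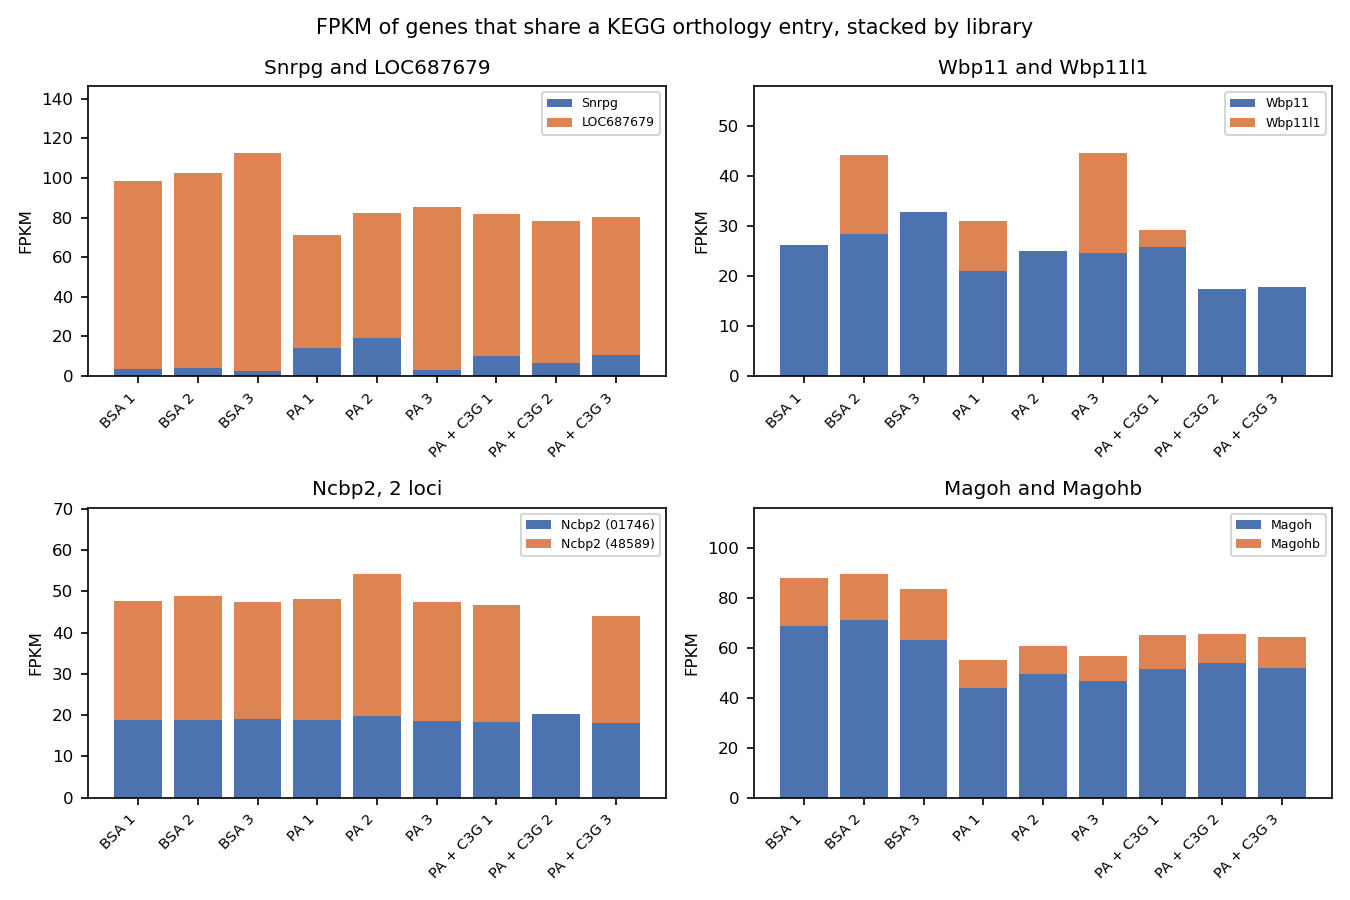
FPKM by library of 4 sets of members that share a KEGG orthology entry, stacked so that the bar height is their sum, with axes from 0. The Snrpg part varies between PA libraries while the sum with LOC687679 is lower in all PA-treated libraries, and the Wbp11l1 and second Ncbp2 parts are missing where they are listed at 0.

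Splicing genes outside the KEGG entry were counted on 4 further lists, to be read against the shares of all tested genes, which were 25.2% lower and 25.8% higher in PA versus BSA, 10.2% and 11.1% in PA + C3G versus PA, and 17.9% and 19.0% in PA + C3G versus BSA. In PA versus BSA, 4 of 7 tested SR protein kinases were lower and 1 higher (median −0.26). Clk3 fell by 0.29 on the log2 scale (SE 0.07, adjusted p = 0.00762), and so did Srpk1, by 0.28 (adjusted p = 0.0386), with BSA replicate 2 at 41 FPKM beside 31 and 30.5 in the others and PA at 27.1 to 28.6. Prpf4b, a kinase of the tri-snRNP, rose by 0.19 (SE 0.06, adjusted p = 0.0255). With C3G, Clk3 rose by 0.32 over PA (SE 0.07, adjusted p = 0.0119), to 23.2, 21.6 and 21.1 FPKM, within the BSA libraries at 22.2, 21.3 and 23.6 or just under them.

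The minor spliceosome, which removes the rare U12-type introns, had 3 of 11 genes lower and 3 higher in PA versus BSA (median −0.09), 1 higher in PA + C3G versus PA, and 2 higher in PA + C3G versus BSA. These counts were near the shares of all tested genes for 11 genes. Zrsr1, a relative of the 3′ splice site factor Zrsr2, was at 2.19, 3.25 and 2.69 FPKM in BSA, 6.58, 9.04 and 7.67 in PA and 5.07, 5.87 and 4.96 in PA + C3G. Its 3 groups did not overlap, and it rose by a log2 fold change of 1.54 in PA versus BSA (SE 0.17, adjusted p = 5.62e-05). Snrnp25, of the U11/U12 particle, rose by 0.60 (SE 0.12, adjusted p = 0.00196). Rnpc3 and Zcrb1, proteins of the same particle, fell by 0.48 (SE 0.13, adjusted p = 0.00967) and 0.25 (SE 0.09, adjusted p = 0.049).

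Of 17 genes for snRNP assembly, 7 were lower and 0 higher in PA versus BSA (median −0.23), 1 was higher in PA + C3G versus PA, and 6 were lower and 1 higher in PA + C3G versus BSA. The SMN complex members Gemin6 and Ddx20 fell by 0.63 (SE 0.12, adjusted p = 0.00214) and 0.33 (SE 0.08, adjusted p = 0.00635) in PA versus BSA. Of 51 other splicing regulators, 30 were lower and 4 higher in PA versus BSA (median −0.22), 5 lower and 8 higher in PA + C3G versus PA, and 28 lower and 1 higher in PA + C3G versus BSA. Celf2, an RNA-binding regulator of exon choice, fell by 0.89 in PA versus BSA (SE 0.08, adjusted p = 9.54e-06), from 25.2, 22.1 and 25 to 12.9, 12.2 and 13.2 FPKM, and was at 12.6, 14.2 and 14.5 in PA + C3G. Mbnl2, which opposes Celf proteins at many exons, rose by 0.27 (SE 0.04, adjusted p = 0.000583), and the neuronal RNA-binding gene Elavl4 by 0.17 (SE 0.06, adjusted p = 0.0413). Of the calls on these lists in PA versus BSA, those of Zcrb1 and Elavl4 were each lost in 9 of 18 alternative settings, that of Prpf4b in 6 and that of Srpk1 in 5.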

How the data were processed

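RNA-seq of polyadenylated RNA from 9 INS-1E libraries was used, 3 per group. Group membership and the 24 h treatment came from the labels, and doses from the study's methods. The sample titles name control, palmitic acid and cyanidin-3-O-glucoside. That the control received BSA and the C3G group also PA is stated in the methods. The authors deposited estimated counts per gene, not normalized, and FPKM, their scaling of those values by gene length and sequencing depth. The submitters' processing notes name cutadapt 1.9, HISAT2 2.0.4, StringTie 1.3.4d, DESeq2 and edgeR. The genome build is not given in the sources used here. No column of per-sample values was left unused. Low estimated counts piled up at multiples of 4 (4044 values at 4, against 2040 at 3 and 1276 at 5), so counts divided by 4 were tried as an alternative. Total estimated counts were 45559993 to 66730721 per library. Whether the pile-up makes these totals overstate the depth, and which genes depth limits, was not tested.

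Genes whose FPKM averaged at least 1 were tested with edgeR 4.0.16 (R 4.3.3), on rounded estimated counts in 1 fit over the 9 libraries, with TMM normalization, the quasi-likelihood test and Benjamini-Hochberg adjustment over all genes tested, calling at an adjusted p under 0.05. Standard errors of log2 fold changes come from that fit. Both groups were called non-overlapping where no FPKM of 1 lay within the range of the other. This used the FPKM as deposited, without the TMM factors of the test. The second criterion was a fold above 2 with an unadjusted p under 0.05, as in the study. With 3 against 3 libraries, an exact two-sided permutation test cannot give a p under 0.1, so none is used for single genes. The script was tested on simulated data. Alternatives were RLE size factors, TPM scaling, DESeq2 1.42.0, no filter, a stricter minimum of 5 on mean FPKM, limma 3.58.1 on log2(FPKM + 1) and log2(FPKM + 0.1), counts divided by 4, the replicate number as a block, and leaving out each library.

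Members, classes and lists were chosen with earlier results of these data known, and 8 members were put in classes from the table's descriptions. Named genes were, per comparison, the 8 (PA versus BSA), 6 (PA + C3G versus PA) or 3 (PA + C3G versus BSA) largest rises and falls among called members with non-overlapping groups. Added were the 2 members of highest mean FPKM per class, 10 core factors (Snrnp70, U2af2, Sf3b1, Prpf8, Snrnp200, Eftud2, Prpf19, Eif4a3, Srsf1 and Lsm2), up to 6 members called in opposite directions in PA versus BSA and PA + C3G versus PA, and the 2 largest called rises and falls in PA versus BSA of each list outside the KEGG entry. One gene that the rule names on these lists is not reported here. Markers and copies that share a KEGG orthology entry were also named, as was Lsm7, an LSm member without a call. Promoters came from RefSeq (GRCr8), matched by Ensembl identifier or symbol. No protein sequence was used here.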

Additional observations from a re-analysis of the deposited data

How the results depend on the processing

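Of the counts and medians over the members, 132 values under the alternatives stayed close to the reported ones and 30 moved. In PA + C3G versus PA, the median of the members changed sign and the split turned to more lower than higher under TPM scaling and limma. Under TPM scaling, 5 members were higher and 31 lower in PA + C3G versus PA, 1 was higher in PA + C3G versus BSA, and the medians of the members were −0.15 (PA versus BSA), −0.07 (PA + C3G versus PA) and −0.25 (PA + C3G versus BSA). With limma at either pseudocount, 10 members were higher in PA + C3G versus PA and 2 in PA + C3G versus BSA, with medians of −0.20, −0.02 and −0.24. The cause was not tested. The replicate block gave 7 members higher in PA + C3G versus BSA. Libraries of the same number had correlations of their deviations between −0.0918 and 0.0796, and those of different numbers between −0.0722 and 0.0937. The numbers were therefore not taken to pair the samples. In PA + C3G versus PA alone, the same numbers gave 0.0254 to 0.0796 and different numbers −0.0722 to 0.0103. LOC108348108 was also highest in replicate 3 of each group, and what the replicates share was not tested further. Leaving out 1 library gave 8 to 12 higher, 62 to 71 lower and medians of −0.21 to −0.17 in PA versus BSA. It gave 9 to 19 higher, 5 to 12 lower and medians of 0.01 to 0.03 in PA + C3G versus PA. It gave 2 to 6 higher, 58 to 67 lower and medians of −0.20 to −0.19 in PA + C3G versus BSA. The counts of 9 arose without PA replicate 1 and without PA + C3G replicate 3, 5 without PA replicate 2, and 7 without PA replicate 3 or PA + C3G replicate 1. The counts of 2 arose without BSA replicate 1, BSA replicate 3 and PA + C3G replicate 3. For single genes and class medians together, 3615 values were computed. Among these, 158 single-gene values lost the call and 50 gained it, and 69 class medians moved.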
